A study of Mus musculus with 4 samples.

Results

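The 10 heat shock and chaperone genes described here were followed through the mouse lung at 4 ages: Hspa1a, Hspa1b, Hspa8, Hsp90aa1, Hsph1, Hspb1, Hspd1, Hspe1, Dnaja1 and Dnajb1. They were taken by name, whatever their values, from the 27998 genes counted by droplet single-cell RNA sequencing. There was 1 library per age, from newborn lungs at 10 days (NB), mature adult lungs at 2 months (2 M), middle-aged lungs at 10 months (10 M) and aged lungs at 18 months (18 M). The labels describe all mice as wild-type males of the strain C57BL/6, and the number of mice behind a library was not given in the sources used here. Lungs were digested with collagenase D and DNase1, and dead cells were removed before droplets were formed.

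Heat shock proteins are chaperones, which hold new or unfolding proteins, help them fold and keep them from clumping. HSP70 proteins work in rounds of ATP use that J proteins (HSP40) start and exchange factors such as HSP110 reset, and they hand many clients on to HSP90. When proteins misfold, heat shock factor 1 binds repeats of the heat shock element in promoters and raises some of these genes within minutes, while other members are made at all times. Enzymatic digestion of tissue is known to set off the same genes in single-cell preparations.

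The promoters of the 3 members that varied most are printed because these members carry most of the results. An element that a further pair shares is also printed. The sequences are from RefSeq on GRCm38.p6, read 5′ to 3′ on the strand of the gene, and the long ones are the 250 bases before the annotated start. Capitals mark neighbouring units of the heat shock element (GAANNTTC or TTCNNGAA, or a longer run of such units). Hspa1a is at chr17:34972157-34972406 (minus strand), Hspa1b at chr17:34959239-34959488 (minus strand) and Hspb1 at chr5:135887669-135887918 (plus strand), and the stretch for Hspe1 covers 30 bases at chr1:55088053-55088082 (plus strand).
Hspa1a: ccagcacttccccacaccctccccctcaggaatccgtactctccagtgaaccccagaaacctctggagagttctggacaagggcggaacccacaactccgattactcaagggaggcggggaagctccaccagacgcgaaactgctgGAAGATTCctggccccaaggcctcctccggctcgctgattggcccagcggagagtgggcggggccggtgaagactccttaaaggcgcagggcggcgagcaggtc
Hspa1b: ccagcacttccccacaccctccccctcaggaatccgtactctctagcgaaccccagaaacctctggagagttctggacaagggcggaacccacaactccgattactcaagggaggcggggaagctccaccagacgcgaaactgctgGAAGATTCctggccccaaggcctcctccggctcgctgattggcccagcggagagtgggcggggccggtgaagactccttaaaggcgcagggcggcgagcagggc
Hspb1: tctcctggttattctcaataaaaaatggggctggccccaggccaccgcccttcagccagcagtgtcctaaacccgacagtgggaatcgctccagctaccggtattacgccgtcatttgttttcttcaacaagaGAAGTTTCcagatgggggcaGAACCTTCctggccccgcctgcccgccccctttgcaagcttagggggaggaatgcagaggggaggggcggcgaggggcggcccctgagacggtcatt
Hspe1: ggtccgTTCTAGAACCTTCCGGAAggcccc

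Hspa1a and Hspa1b encode near-identical inducible HSP70 proteins, and their windows, which reach 50 bases past the start, were the same at 296 of 300 bases (98.7%). With positions counted from 1 at the 5′ end of the window and the base of Hspa1a given first, they differed by C44T, T47C, T249G and C276T. Both genes lie on chromosome 17 with starts 12918 bases apart, and each window held 1 pair of units, 104 bases before the start. Hspb1, on chromosome 5, held 2 such pairs. Hspd1 and Hspe1, which encode the mitochondrial chaperonin and its lid, start 111 bases apart on opposite strands of chromosome 1, and the run of units printed for Hspe1 lies in a window of each.

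The full element of 3 units, GAANNTTCNNGAA or TTCNNGAANNTTC on either strand, was found in a window of 3 of the 8 members for which RefSeq gave one (Hsph1, Hspd1 and Hspe1), against 0.662% of 27025 genes and 0.603% of 32851 windows of 300 bases. Hspd1 and Hspe1 were counted for the same stretch between them. That of Hsph1 lay after the annotated start, by 36 or 15 bases depending on the window. The form of 2 units, which every full element contains and which was searched only after the first result was seen, was found for 7 of these 8 members, all but Dnajb1, against 17.0% of genes and 15.1% of windows. Hspa8 and Hsp90aa1 are named only. A match is a description of letters in a window and was not set against the levels below.

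Cells were assigned to 10 types by marker genes, none of them a chaperone. A cell needed a UMI (unique molecular identifier, standing for 1 captured RNA molecule) of at least 3 of the 10 markers of a type and at least 2 more of its markers than of any other type's. Of 34037 barcodes, 28153 cells passed the limits on genes, UMIs and mitochondrial share, with a median of 3998.5 to 4308 UMIs per library, and 21692 were assigned. These were 839 fibroblasts, 202 endothelial cells, 933 alveolar type II cells, 5914 T cells, 9518 B cells, 1282 NK cells, 1816 neutrophils and 963 alveolar macrophages. A further 134 pericytes and smooth muscle cells and 91 monocytes, interstitial macrophages and dendritic cells were too few for ratios in at least 1 library. No measured marker of the first 8 types was at 0 in its own cell type in any library, but 1 of the 10 markers of pericytes and smooth muscle cells was at 0 in each of 2 libraries, 2 M and the one labelled 18 M, and 3 of the 10 T cell markers and 2 of the 10 B cell markers were not analysed here.

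The library labelled 18 M went against its label. Xist, an RNA of the inactive X chromosome in females, reached 578 CPM there (counts scaled to a total of 1000000 UMIs), against at most 0.526 CPM in the libraries of the other ages. In it, 3044 cells held a UMI of Xist and 3331 held a UMI of a Y-linked gene and none of Xist, so the values called in it are also given for each of these sets of cells. Haemoglobin stood at 49839.7 CPM in it, against 10491 to 15305 CPM in the other libraries. The libraries shared 131 barcodes, which covered 214 of the cells kept.

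Levels are CPM, computed after summing the cells of 1 type within 1 library. Since each age had 1 library, differences lack a replicate check, and ages were not tested against each other. Intervals are exact Poisson intervals for CPM, conditional binomial intervals for ratios and Clopper-Pearson intervals for shares of cells, all at 95%, and they cover counting error only, so neither mouse-to-mouse nor cell-to-cell spread is in them. A gene was called in a cell type where the ratio of 2 libraries was at least 2 or at most 0.5 and its interval excluded 1, given at least 30 cells in each library and at least 20 UMIs of the gene in both together. In such sums, fewer cells with a transcript and less of it per cell cannot be told apart.

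Among the 8 cell types with ratios, Hspa1a, Hspa1b and the small heat shock protein gene Hspb1 were highest in endothelial cells and fibroblasts, lower in alveolar type II cells and lowest in lymphocytes, neutrophils and alveolar macrophages. Hspa8, the constitutive HSP70 gene, Hsp90aa1 and the J protein gene Dnaja1 were spread far more evenly. By the median CPM over the 4 libraries, the highest of 8 cell types exceeded the lowest 133-fold for Hspa1a, 116-fold for Hspa1b and 1041-fold for Hspb1, against 4.68-fold for Hspa8, 4.86-fold for Hsp90aa1 and 3.49-fold for Dnaja1. The remaining members lay between, at 6.95-fold for Hspe1, 8.44-fold for Hspd1, 13.8-fold for Hsph1 and 16.1-fold for Dnajb1.

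**Figure D1:**
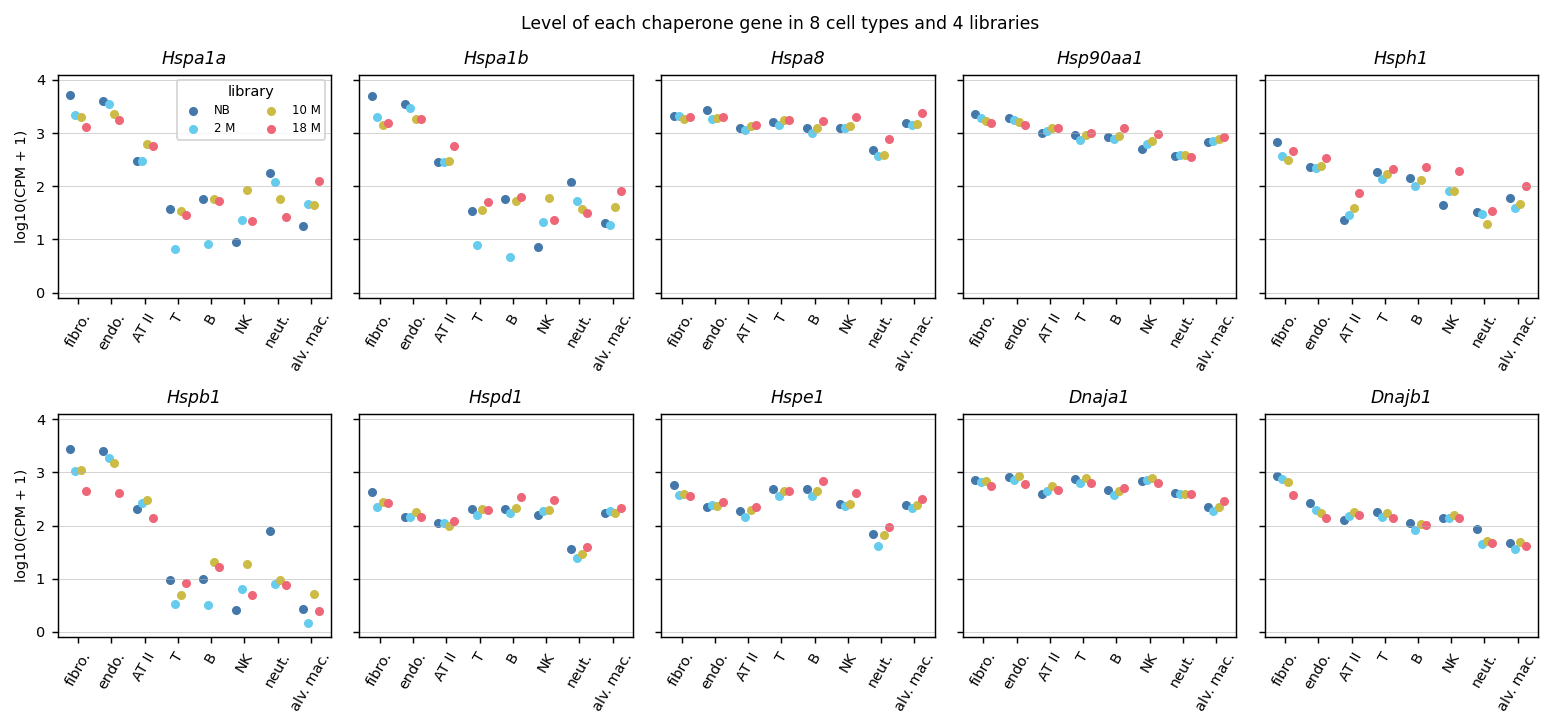
Level of each chaperone gene as log10(CPM + 1) in 8 cell types (fibro., fibroblasts; endo., endothelial cells; AT II, alveolar type II cells; T, B and NK cells; neut., neutrophils; alv. mac., alveolar macrophages), 1 point per library. Hspa1a, Hspa1b and Hspb1 step down from the stroma through AT II to lymphocytes, neutrophils and alveolar macrophages. Hspa8 and Dnaja1 stay within a narrow band.

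The inducible HSP70 genes are those that a cell makes on demand. Hspa1a had a median of 2871 CPM in endothelial cells (range over libraries 1758 to 3941) and 2099.7 CPM in fibroblasts (range 1285 to 5205), and these ranges overlapped. Alveolar type II cells followed at 436 CPM (range 294 to 630.2), clear of their neighbours on either side. Neutrophils, B cells, alveolar macrophages, T cells and NK cells came next, with medians of 86.4, 53.5, 45.1, 30.6 and 21.6 CPM, each overlapping the next in this order. Hspa1b had the same 3 cell types on top, in the same order.

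In fibroblasts, Hspa1a stood at 5205 CPM in NB, 2185 CPM in 2 M, 2015 CPM in 10 M and 1285 CPM in the library labelled 18 M. Hspa1b stood at 5026 CPM in NB, 1974 CPM in 2 M, 1406 CPM in 10 M and 1512 CPM in the library labelled 18 M. The newborn library was the highest for both genes. In endothelial cells, Hspa1a stood at 3941 CPM in NB, 3467 CPM in 2 M, 2275 CPM in 10 M and 1758 CPM in the library labelled 18 M, again highest in the newborn library and lowest in the library labelled 18 M. In pericytes and smooth muscle cells, with 10 to 56 cells per library, it kept a range of 1061 to 1128 CPM.

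Because the genes are near-identical, their counts could be split wrongly between them. Of the stretches of 90 bases in the annotated transcript of Hspa1a, 49.3% also occur in that of Hspa1b, but none of the 411 stretches in its last 500 bases, the end from which 3′ tags are read. Across 35 sums of a cell type and a library, log2(CPM + 1) of the 2 genes had a Pearson r of 0.99, a description only, since sums of 1 library share its depth and handling.

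Hspb1 encodes a small heat shock protein that holds unfolding proteins without using ATP and also acts on actin filaments. In fibroblasts it stood at 2753 CPM in NB, 1052 CPM in 2 M, 1103 CPM in 10 M and 446 CPM in the library labelled 18 M. In endothelial cells it stood at 2498 CPM in NB, 1829 CPM in 2 M, 1489.9 CPM in 10 M and 417 CPM in the library labelled 18 M. The newborn library was highest and the library labelled 18 M lowest in both. Pericytes and smooth muscle cells belonged with the high cell types, with 2489.8 CPM in NB, 1646 CPM in 2 M, 2891 CPM in 10 M and 1107 CPM in the library labelled 18 M, whereas alveolar macrophages had a median of 1.59 CPM. Over the sums, Hspb1 had a Pearson r of 0.94 with Hspa1a and 0.36 with Hspa8.

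**Figure D2:**
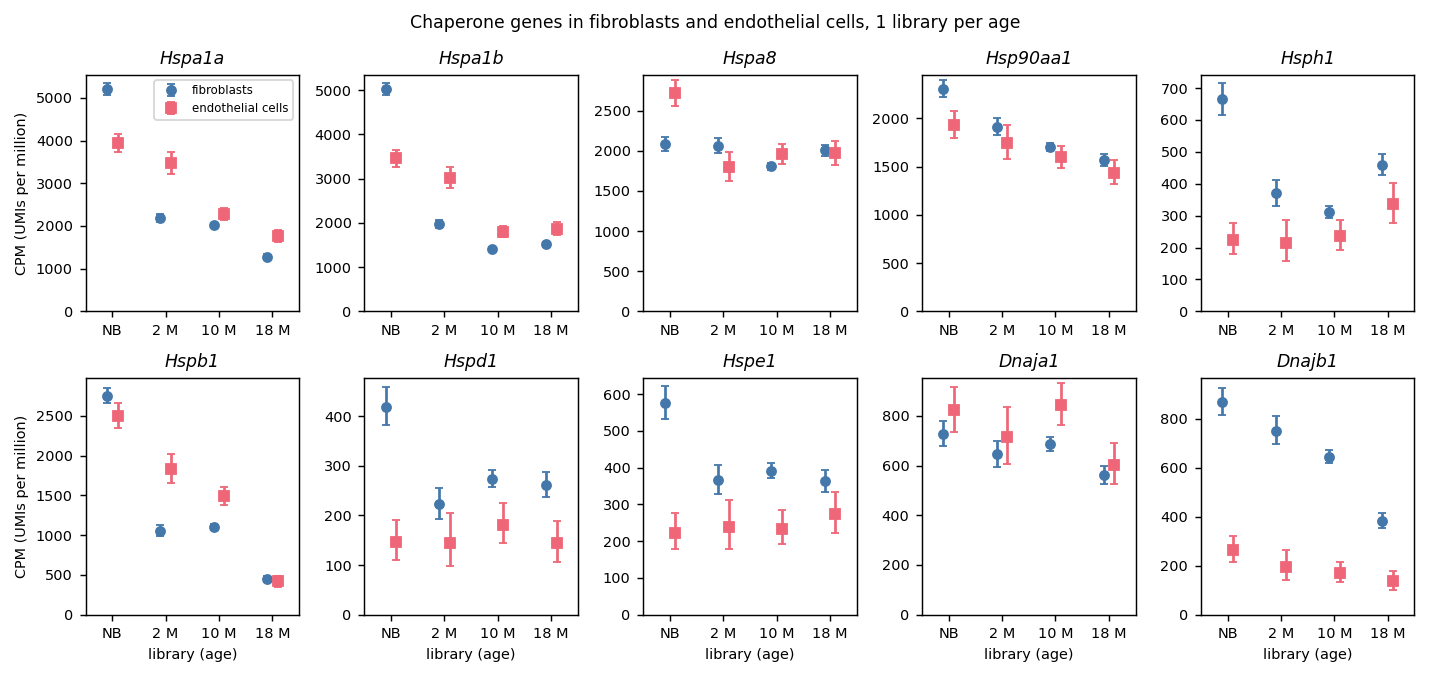
CPM of the 10 chaperone genes in fibroblasts (circles) and endothelial cells (squares) by library, with exact Poisson intervals at 95% that cover counting error only. Hspa1a, Hspa1b and Hspb1 are highest in NB in both cell types, and Hspa8 stays between 1804 and 2080.4 CPM in fibroblasts.

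In the stroma, Hspa8, Hsp90aa1 and Dnaja1 moved less over the libraries than Hspa1a, Hspa1b and Hspb1 did. Hspa8, whose product folds new proteins and uncoats clathrin vesicles, stood in fibroblasts at 2080.4 CPM in NB, 2064 CPM in 2 M, 1804 CPM in 10 M and 2004 CPM in the library labelled 18 M. Hsp90aa1, which encodes the stress-responsive cytosolic HSP90, stood at 2309.6 CPM in NB, 1916 CPM in 2 M, 1702 CPM in 10 M and 1566 CPM in the library labelled 18 M. It was lower at each later age, as Hspa1a was. Dnaja1 ranged from 562 to 728 CPM. Dnajb1, the J protein gene that pairs with inducible HSP70, stood at 868 CPM in NB, 750.3 CPM in 2 M, 645 CPM in 10 M and 382 CPM in the library labelled 18 M, and its ratio of 18 M over 2 M, 0.509 (interval 0.455 to 0.568), came just short of the limit.

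Hsph1, the HSP110 gene, stood in fibroblasts at 665 CPM in NB, 371 CPM in 2 M, 311 CPM in 10 M and 459 CPM in the library labelled 18 M. Hspd1 (HSP60) stood at 419.9 CPM in NB, 223 CPM in 2 M, 274 CPM in 10 M and 261 CPM in the library labelled 18 M, and Hspe1 (HSP10) at 576 CPM in NB, 366 CPM in 2 M, 392 CPM in 10 M and 363 CPM in the library labelled 18 M. All 3 were highest in the newborn fibroblasts, but not in endothelial cells, where Hspd1 ranged from 144 to 181 CPM. Over the sums, the chaperonin genes Hspd1 and Hspe1 had a Pearson r of 0.93 with each other, and Hspd1 one of 0.16 with Hspa1a and 0.85 with Hspa8.

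The comparison of the library labelled 18 M with 2 M set aged against young adult lungs. Of the 77 member and cell type pairs that could be compared, 15 (19.5%) were at least 2-fold higher in the library labelled 18 M, against 7.02% of all 70432 gene and cell type pairs, and 3 (3.90%) were at least 2-fold lower, against 3.68%. The higher pairs were 4 of Hspa1b, 4 of Hsph1, 3 of Hspa1a, 2 of Hspb1 and 1 each of Hspa8 and Hspe1, and the lower pairs 2 of Hspb1 and 1 of Hspa1a. Hsp90aa1, Hspd1, Dnaja1 and Dnajb1 were called in no cell type. With only the Xist-positive cells of the library labelled 18 M, 15 pairs were higher and 2 lower of 67. With only its Y-linked, Xist-negative cells, 15 were higher and 3 lower of 67. The share of all genes called was not counted for these sets of cells.

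Hspb1 was called lower in the stroma. In fibroblasts it stood at 446 CPM in the library labelled 18 M against 1052 CPM in 2 M (ratio 0.424, interval 0.385 to 0.468), where 6.63% of all genes were called higher and 4.75% lower, and in endothelial cells, with 38 cells in each library, at 417 CPM against 1829 CPM (ratio 0.228, interval 0.187 to 0.276), where 9.48% of all genes were called higher and 4.89% lower. Xist-positive and Y-linked, Xist-negative fibroblasts of the library labelled 18 M held 427 and 517 CPM of Hspb1, and the endothelial cells 309 and 575 CPM, all under the 2 M level. Without upper limits on genes, UMIs and mitochondrial share, the fibroblast ratio was 0.611, which is not called. The other 9 members were not called in either cell type, Hspa1a having a ratio of 0.588 (interval 0.553 to 0.626) in fibroblasts and 0.507 (interval 0.455 to 0.565) in endothelial cells. The fibroblasts also differed in their own markers, which summed to 74684 CPM in the library labelled 18 M against 23594 CPM in 2 M. Immediate early genes, which digestion is also known to raise, were called lower for 3 of 17 in fibroblasts and 8 of 16 in endothelial cells and higher for none, and summed to 16091 CPM in the library labelled 18 M against 24292 CPM in 2 M in fibroblasts and to 11858 CPM against 22043 CPM in endothelial cells. Markers of pericytes and smooth muscle cells, which hold much Hspb1, summed in endothelial cells to 40.2 CPM in the library labelled 18 M against 289 CPM in 2 M, and haemoglobin to 13585 CPM against 78065 CPM there and to 10732 CPM against 2952 CPM in fibroblasts. The part of any of these in the chaperone values was not tested.

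In B cells, all 10 members had a ratio above 1 and 4 were called higher, where 9.77% of all genes were called higher and 4.08% lower. Hspa1b stood at 61.8 CPM in the library labelled 18 M against 3.68 CPM in 2 M (ratio 16.8, interval 11.9 to 24.5), Hspa1a at 51.1 CPM against 7.24 CPM (ratio 7.06, interval 5.45 to 9.25) and Hspb1 at 15.8 CPM against 2.16 CPM (ratio 7.31, interval 4.56 to 12.3). Hsph1 stood at 229 CPM against 100.1 CPM (ratio 2.29, interval 2.12 to 2.47). The first 3 were called from low levels, while Hsph1 was present in many B cells: with each cell thinned to 1000 UMIs, 18.5% of B cells of the library labelled 18 M (413 of 2228; interval 16.9 to 20.2) held a UMI of it, against 10.3% in 2 M (234 of 2278; interval 9.06 to 11.6).

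The median log2 ratio of the members in B cells was 0.93, beside 0.11 over all genes tested there. Hspa8 stood at 1665 CPM in the library labelled 18 M against 1013 CPM in 2 M (ratio 1.64, interval 1.60 to 1.69), Hspd1 at 336 CPM against 175 CPM (ratio 1.92, interval 1.81 to 2.05) and Hspe1 at 686 CPM against 364 CPM (ratio 1.88, interval 1.81 to 1.97), all inside the 2-fold limit. Xist-positive and Y-linked, Xist-negative B cells of the library labelled 18 M held 76.2 and 35.2 CPM of Hspa1a, 96.1 and 39.9 CPM of Hspa1b, 24.9 and 8.88 CPM of Hspb1, and 229.6 and 244 CPM of Hsph1, each above the 2 M level. With no marker of another type allowed, the ratio of Hsph1 was 1.83, which is not called. Fibroblast markers summed to 68.3 CPM in these B cells against 10.4 CPM in 2 M, and haemoglobin to 37190 CPM against 10875 CPM. Their part in the B cell values was not tested.

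T cells had 3 called members, all higher, where 9.62% of all genes were called higher and 1.9% lower. Hspa1a stood at 27.9 CPM in the library labelled 18 M against 5.73 CPM in 2 M (ratio 4.87, interval 3.54 to 6.84), Hspa1b at 49.0 CPM against 7.01 CPM (ratio 6.99, interval 5.28 to 9.43) and Hspb1 at 7.35 CPM against 2.29 CPM (ratio 3.21, interval 1.89 to 5.73). Xist-positive and Y-linked, Xist-negative T cells held 35.9 and 16.1 CPM of Hspa1a, 66.9 and 26.2 CPM of Hspa1b and 9.24 and 5.80 CPM of Hspb1, each above the 2 M level. Fibroblast markers summed to 51.7 CPM in T cells of the library labelled 18 M against 7.13 CPM in 2 M, and haemoglobin to 22971 CPM against 7031 CPM. Sftpc, an alveolar type II gene, stood in these T cells at 252 CPM against 56.8 CPM in 2 M. Dcn, a fibroblast gene, stood in T cells at 0.0603% of its fibroblast level in the library labelled 18 M and at 0.0251% in 2 M. Hspa1a stood at 2.17% and 0.262% of its own fibroblast level. The part of RNA from other cell types in the T cell values was not tested.

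Alveolar macrophages, the phagocytes of the air spaces, had 3 called members, where 4.32% of all genes were called higher, and all 9 members tested had a ratio above 1. The share of all genes with a ratio above 1 was not counted there. Hspa1a stood at 126 CPM in the library labelled 18 M against 46.1 CPM in 2 M (ratio 2.73, interval 2.20 to 3.42), Hspa1b at 80.6 CPM against 17.5 CPM (ratio 4.62, interval 3.29 to 6.67) and Hsph1 at 99.8 CPM against 38.8 CPM (ratio 2.57, interval 2.04 to 3.29). Thinned to 1000 UMIs, 7.40% of macrophages of the library labelled 18 M (33 of 446; interval 5.15 to 10.2) held a UMI of Hspa1a, against 1.68% in 2 M (2 of 119; interval 0.204 to 5.94). The Xist-positive and the Y-linked, Xist-negative macrophages held 85.8 and 150.2 CPM of it, 63.5 and 84.7 CPM of Hspa1b and 97.1 and 104.6 CPM of Hsph1, each above the 2 M level. The calls depended on which cells were taken: a looser gate (at least 2 markers, and at least 1 more than of any other type) gave 1.46 for Hspa1a and 1.65 for Hspa1b, the Xist-positive cells gave 1.86 for Hspa1a, leaving out cycling cells (with at least 2 of the cell cycle genes) gave 1.75 for Hspa1a and 1.97 for Hsph1, and thinning gave 1.81 for Hsph1, none of them called. Fibroblast markers summed to 33.3 CPM in the library labelled 18 M against 2.91 CPM in 2 M in the macrophages and haemoglobin to 9899 CPM against 139.6 CPM, while immediate early genes summed to 3939 CPM against 5202 CPM. The part of these in the macrophage values was not tested.

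Alveolar type II cells, which make surfactant, had 2 called members, beside 5.37% of all genes. Hspa1b stood at 566 CPM in the library labelled 18 M against 280.0 CPM in 2 M (ratio 2.02, interval 1.74 to 2.37) and Hsph1 at 73.7 CPM against 27.2 CPM (ratio 2.71, interval 1.67 to 4.69). The share of thinned cells with a UMI of Hspa1b was 22.3% in the library labelled 18 M (143 of 641; interval 19.1 to 25.7) and 23.3% in 2 M (10 of 43; interval 11.8 to 38.6). The intervals of the shares overlapped, while the sums differed 2-fold. Hspa1b lay close to the limit and was not called in 6 of 14 alternatives, with ratios of 1.98 and 1.92 under the looser gate and a stricter one (at least 4 markers, and at least 3 more than of any other type), 1.73 as means over cells, 1.65 by thinning, 1.83 after the median ratio of all genes was set to 1 and 1.83 with the Y-linked, Xist-negative cells, whereas leaving out the 5 top cells gave 4.56. Hsph1 was not called by thinning, where its interval took in 1. Xist-positive and Y-linked, Xist-negative cells held 571 and 513 CPM of Hspa1b and 73.7 and 76.1 CPM of Hsph1. Fibroblast markers summed to 149 CPM in the library labelled 18 M against 24.0 CPM in 2 M in these cells and haemoglobin to 23271 CPM against 144 CPM, and their part in the values was not tested.

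NK cells had 1 called member, Hsph1, at 189 CPM in the library labelled 18 M against 81.8 CPM in 2 M (ratio 2.31, interval 1.84 to 2.90), where 3.46% of all genes were called higher and 6.43% lower. The Xist-positive and the Y-linked, Xist-negative NK cells held 201 and 190.2 CPM of it, and the stricter gate gave a ratio of 1.98, just inside the limit. Fibroblast markers summed in NK cells to 37.8 CPM in the library labelled 18 M against 7.74 CPM in 2 M, cell cycle genes to 1281 CPM against 424 CPM and haemoglobin to 36685 CPM against 19963 CPM, and their part was not tested.

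In neutrophils the called members were mostly constitutive ones. Hspa8 stood at 779.7 CPM in the library labelled 18 M against 367 CPM in 2 M (ratio 2.12, interval 1.88 to 2.40) and Hspe1 at 93.7 CPM against 39.7 CPM (ratio 2.36, interval 1.63 to 3.52), where 8.05% of genes were called higher. Thinned shares differed in the same direction for Hspa8, at 40.9% in the library labelled 18 M (214 of 523; interval 36.7 to 45.3) against 20.8% in 2 M (48 of 231; interval 15.7 to 26.6). Hspa1a was called lower, at 25.8 CPM against 117 CPM (ratio 0.221, interval 0.153 to 0.315), beside 3.71% of genes. A single cell held 90 of the 100 UMIs of Hspa1a in 2 M neutrophils, and without the 5 cells with most UMIs in each library the ratio was 1.71, the other way.

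Xist-positive and Y-linked, Xist-negative neutrophils of the library labelled 18 M held 1034 and 810.3 CPM of Hspa8 and 224 and 93.6 CPM of Hspe1, above the 2 M level, and 14.4 and 44.6 CPM of Hspa1a, below it. The looser gate gave ratios of 1.80 for Hspa8 and 1.51 for Hspe1, and setting the median ratio of all genes to 1 gave 1.97 for Hspa8, none of them called. Immediate early genes were called higher for 4 of 17 in neutrophils and lower for none, and summed to 11676 CPM in the library labelled 18 M against 8547 CPM in 2 M. The 4 were Egr1 (ratio 3.04, interval 2.66 to 3.49), Fos (ratio 2.67, interval 2.23 to 3.20), Zfp36 (ratio 2.13, interval 1.92 to 2.36) and Egr2 (ratio 2.10, interval 1.49 to 3.02). Haemoglobin summed to 51182 CPM in the library labelled 18 M against 428 CPM in 2 M, alveolar macrophage markers to 382 CPM against 94.5 CPM and fibroblast markers to 117 CPM against 23.3 CPM, while the neutrophils' own markers summed to 105099 CPM against 122989 CPM. The part of any of these in the neutrophil values was not tested.

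**Figure D3:**
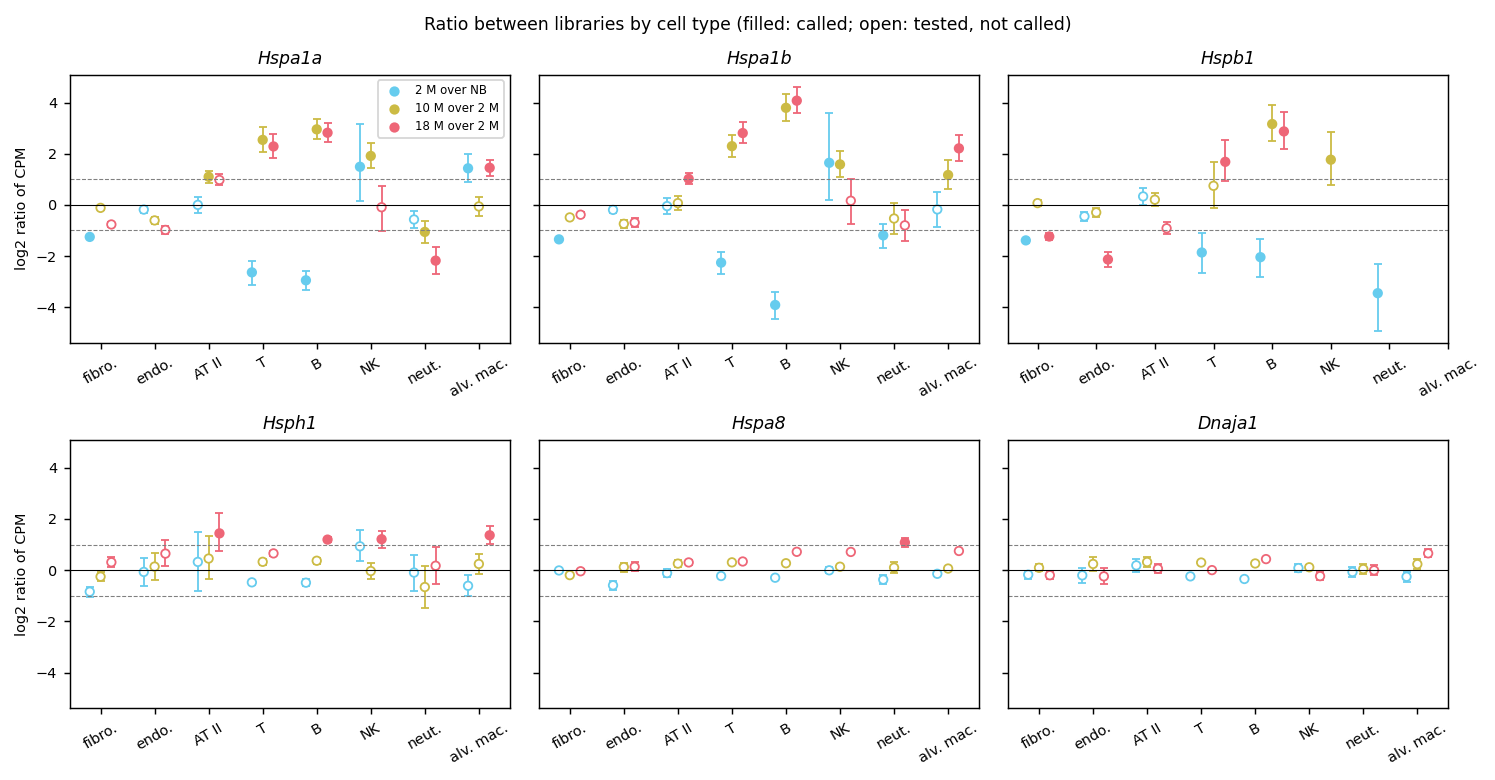
Log2 ratio of CPM for 6 chaperone genes in 8 cell types (fibro., endo., AT II, T, B, NK, neut., alv. mac.), for 2 M over NB, 10 M over 2 M and 18 M over 2 M, with conditional binomial intervals at 95%; filled points are called, open points were tested and not called, and dashed lines mark 2-fold. In T and B cells, Hspa1a and Hspa1b lie below the lower line for 2 M over NB and above the upper line for both later ages over 2 M, while every point of Dnaja1 lies between the lines.

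Between middle age and young adulthood, 10 of 78 pairs (12.8%) were at least 2-fold higher in 10 M, against 2.33% of all 67289 gene and cell type pairs, and 1 (1.28%) was lower, against 1.86%. All were pairs of Hspa1a, Hspa1b or Hspb1. In B cells, Hspa1a stood at 56.0 CPM in 10 M against 7.24 CPM in 2 M (ratio 7.73, interval 6.01 to 10.1), Hspa1b at 50.9 CPM against 3.68 CPM (ratio 13.9, interval 9.81 to 20.2) and Hspb1 at 19.3 CPM against 2.16 CPM (ratio 8.93, interval 5.65 to 14.9), where 1.11% of genes were called higher. In T cells, Hspa1a stood at 33.3 CPM in 10 M against 5.73 CPM in 2 M (ratio 5.81, interval 4.24 to 8.14) and Hspa1b at 34.3 CPM against 7.01 CPM (ratio 4.90, interval 3.67 to 6.66), where 3.41% of all genes were called higher and 1.47% lower. With T cells limited to those with no marker of another type, the ratio was 1.70 (interval 0.742 to 4.11) for Hspa1a, which is not called, and 0.605 (interval 0.231 to 1.502) for Hspa1b, on the other side of 1. This comparison and the one before it share the 2 M library, which was the lowest of the 4 for these genes in both lymphocyte types.

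Fibroblast markers in T cells summed to 7.23 CPM in 10 M against 7.13 CPM in 2 M, and in B cells to 10.8 CPM against 10.4 CPM. Immediate early genes were called higher for 3 of 17 in T cells, with sums of 5592 CPM in 10 M against 4372 CPM in 2 M, NK cell markers there summed to 354 CPM against 56.8 CPM and plasma cell markers to 36.9 CPM against 15.7 CPM, and haemoglobin in B cells to 22752 CPM against 10875 CPM. NK cells had 3 called members, with ratios of 3.76 (interval 2.73 to 5.29) for Hspa1a, 2.99 (interval 2.11 to 4.34) for Hspa1b and 3.40 (interval 1.73 to 7.28) for Hspb1, beside 1.2% of genes. There, 5 of 571 cells in 10 M held 95.3% of the UMIs of Hspa1a and 93.4% of those of Hspa1b, and without the top cells too few UMIs were left to compare. Fibroblast markers in NK cells summed to 36.2 CPM in 10 M against 7.74 CPM in 2 M, and the part of any of these sums in the values of T, B and NK cells was not tested.

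Of the other calls for 10 M over 2 M, Hspa1a in alveolar type II cells had a ratio of 2.14 (interval 1.83 to 2.52), which was 1.86 without the 5 top cells, beside 1.8% of genes. Hspa1b in alveolar macrophages had one of 2.25 (interval 1.54 to 3.34), which was 1.04 without them, beside 1.81%. Hspa1a in neutrophils, called lower, had one of 0.481 (interval 0.356 to 0.648), which was 1.60 without them, beside 3.72%. None of these 3 calls held without those cells. Haemoglobin was higher in 10 M in all 3 types, summing to 10078 CPM in 10 M against 144 CPM in 2 M in alveolar type II cells, 1938 CPM against 139.6 CPM in alveolar macrophages and 28683 CPM against 428 CPM in neutrophils, and its part was not tested. In fibroblasts no member was called, where 3.19% of genes were higher and 1.77% lower, and Hspb1 had a ratio of 1.05 (interval 0.976 to 1.13). No member was called in endothelial cells either, where 6.05% of all genes were called higher and 4.68% lower.

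The comparison of 2 M with NB covered growth from the newborn to the adult. Of 78 pairs, 11 (14.1%) were at least 2-fold lower in 2 M, against 3.78% of all 62702 gene and cell type pairs, and 3 (3.85%) were higher, against 3.04%. Every member had a ratio under 1 in fibroblasts, with a median log2 ratio of -0.75 beside 0.02 over all genes. There, Hspa1a had a ratio of 0.420 (interval 0.399 to 0.442), Hspa1b of 0.393 (interval 0.372 to 0.415) and Hspb1 of 0.382 (interval 0.355 to 0.411), all called lower, where 3.25% of all genes were called higher and 4.33% lower. Immediate early genes were called in neither direction for any of 17 in these fibroblasts and summed to 24292 CPM in 2 M against 22307 CPM in NB. Markers of plasma cells, which secrete antibody, did differ in them. They summed to 25.8 CPM in 2 M against 1706 CPM in NB, with 1 of 2 tested called lower. The fibroblasts' own markers also differed, summing to 23594 CPM in 2 M against 10716 CPM in NB. The part of any of these in the fibroblast values was not tested.

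In T and B cells, too, all 10 members had ratios under 1. The share of all genes with a ratio under 1 was not counted there, so this cannot be read against it. This comparison also uses the 2 M library, on which the ratios of both later ages rest. Hspa1a in T cells stood at 35.7 CPM in NB, 5.73 CPM in 2 M, 33.3 CPM in 10 M and 27.9 CPM in the library labelled 18 M. In B cells it stood at 55.9, 7.24, 56.0 and 51.1 CPM in the same order. The low ratios here and the high ones at later ages are thus not separate results, as all involve the low 2 M values. In T cells, Hspa1a had a ratio of 0.161 (interval 0.115 to 0.219), Hspa1b of 0.209 (interval 0.154 to 0.278) and Hspb1 of 0.275 (interval 0.156 to 0.461), where 2.81% of all genes were called higher and 6.94% lower. In B cells the ratios were 0.130 (interval 0.0988 to 0.168) for Hspa1a, 0.0664 (interval 0.0455 to 0.0941) for Hspa1b and 0.242 (interval 0.140 to 0.400) for Hspb1, where 3.52% of genes were called lower. Immediate early genes were called lower for 4 of 17 in T cells, with 4372 CPM in 2 M against 5951 CPM in NB, and for 2 of 17 in B cells. Plasma cell markers were called lower for 2 of 5 in B cells, where they summed to 36.3 CPM in 2 M against 2145 CPM in NB, and for 2 of 4 in T cells, where they summed to 15.7 CPM against 55.8 CPM, and NK cell markers in T cells summed to 56.8 CPM against 272 CPM. Their part in the chaperone values was not tested.

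The other calls of this comparison were in neutrophils, NK cells and alveolar macrophages, and those in NK cells rested on few molecules. In neutrophils, Hspa1b had a ratio of 0.438 (interval 0.312 to 0.601) and Hspb1 of 0.0914 (interval 0.0331 to 0.203), where 5.72% of all genes were called higher and 2.9% lower, and 5 cells held 92.3% of the UMIs of Hspb1 in NB. Without the 5 top cells, Hspa1b gave 0.416, which is still called, and too few UMIs of Hspb1 were left to compare. Without cycling cells, Hspa1b gave 1.31 and Hspb1 0.625, and plasma cell markers in neutrophils summed to 29.2 CPM in 2 M against 625 CPM in NB and haemoglobin to 428 CPM against 23851 CPM, whose part was not tested. In NK cells, Hspa1a and Hspa1b were called higher from 46 and 41 UMIs in 2 M against 5 and 4 UMIs in NB, where 3.17% of all genes were called higher and 1.09% lower. In alveolar macrophages, Hspa1a was called higher with a ratio of 2.69 (interval 1.84 to 4.01), which was 1.07 without the 5 top cells, where 1.44% of all genes were called higher and 3.31% lower. No member was called in endothelial cells, where 5% of all genes were called higher and 4.93% lower, or in alveolar type II cells, where 3.1% of all genes were called higher and 2% lower.

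Single cells showed how unevenly the inducible genes were held. The share of fibroblasts with a UMI of Hspa1a was 79.5% at NB, 83% at 2 M, 64.2% at 10 M and 54.3% for the library labelled 18 M, and the median fibroblast held 9.89 UMIs per 10000 at NB, 6.15 UMIs per 10000 at 2 M, 2.84 UMIs per 10000 at 10 M and 0.619 UMIs per 10000 for the library labelled 18 M. With each cell thinned to 1000 UMIs, the shares were 61.3% in NB (84 of 137; interval 52.6 to 69.5), 52.0% in 2 M (51 of 98; interval 41.7 to 62.2), 38.5% in 10 M (144 of 374; interval 33.5 to 43.6) and 31.5% in the library labelled 18 M (47 of 149; interval 24.2 to 39.7). The share was lower at each later age, although the intervals of neighbouring ages overlapped. For Hspb1 it was 52.6% at NB, 36.7% at 2 M, 38.8% at 10 M and 19.5% for the library labelled 18 M.

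Thinned lymphocytes seldom held a UMI of Hspa1a, in 0.600% to 2.29% of T cells and 0.615% to 2.69% of B cells over the libraries, and the median cell of either type held none. Free RNA in droplets can place a UMI in a cell that does not make the gene, and what part it had in shares this low was not tested. The B cell shares were 1.91% in NB (37 of 1942; interval 1.34 to 2.62), 0.615% in 2 M (14 of 2278; interval 0.336 to 1.03), 1.31% in 10 M (40 of 3042; interval 0.941 to 1.79) and 2.69% in the library labelled 18 M (60 of 2228; interval 2.06 to 3.45). Hspa8, by contrast, was found in 71.1% to 77.2% of thinned fibroblasts, 72.6% to 79.8% of T cells, 61.0% to 77.6% of B cells and 20.8% to 40.9% of neutrophils. Before thinning, the median depth was 7474.5 to 8384.5 UMIs in fibroblasts and 3177 to 3811 in B cells, and 9.42% of B cells of the library labelled 18 M held Hspa1a, against 1.88% in 2 M.

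**Figure D4:**
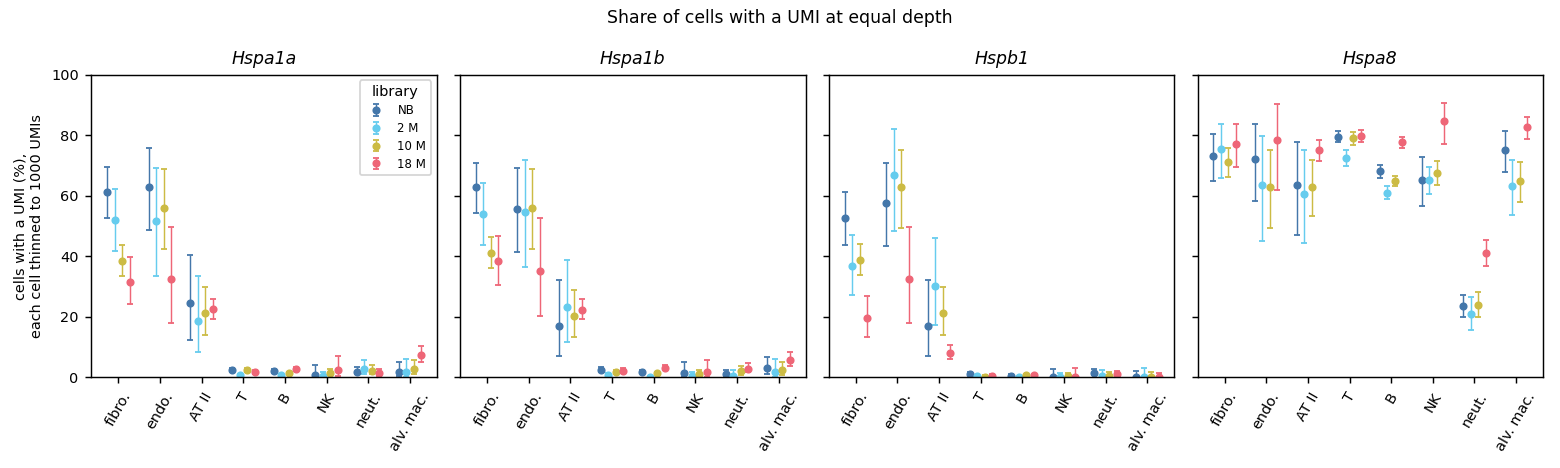
Share of cells with at least 1 UMI of Hspa1a, Hspa1b, Hspb1 or Hspa8 after each cell was thinned to 1000 UMIs, by cell type (fibro., endo., AT II, T, B, NK, neut., alv. mac.) and library, with Clopper-Pearson intervals at 95%. The 3 genes on the left are common in the stroma and near 0 in lymphocytes, and Hspa8 is held by 20.8% to 40.9% of neutrophils and by most cells of every other type.

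Part of the fibroblasts, endothelial cells and alveolar type II cells carried most of the UMIs of Hspa1a. Cells with at least 10 UMIs of Hspa1a made up 28.5% of fibroblasts (239 of 839), 37.6% of endothelial cells (76 of 202) and 9.97% of alveolar type II cells (93 of 933), but 17 of 5914 T cells and 21 of 9518 B cells. Each of those 17 T cells and 21 B cells also held Hspa1b. A UMI of a stromal marker was found in 41.2% of these T cells and 47.6% of these B cells, against 40.4% and 36.2% of the remaining ones. Over all libraries the gap was wider in alveolar macrophages, at 76.2% (16 of 21) against 52.5% of the remaining cells. It was also wider in neutrophils, at 57.1% (4 of 7) against 28.1%, and in NK cells, at 66.7% (2 of 3) against 31.2%. Of the 21 macrophages, 17 came from the library labelled 18 M, where 13 of them held one, against 63.9% of the remaining ones. These neutrophils were deeper, with medians of 3989.5 to 8149 UMIs against 2525 to 3418.5 UMIs in the remaining ones. These NK cells held medians of 6396 UMIs in 2 M and 7146.5 UMIs in 10 M, against 4311 and 3869 UMIs. The part of library and depth in the gaps was not tested. By library, 5 of the 7 such T cells of the library labelled 18 M held a stromal marker, against 62.6% of its remaining T cells. In 10 M, 0 of the 5 such T cells did, against 29.3% of the remaining ones. In fibroblasts such cells made up 45.2% at NB, 34% at 2 M, 26.4% at 10 M and 17.0% for the library labelled 18 M, and they held 90.0% to 97.0% of the UMIs of Hspa1a. Their median depth was 9339.5 to 14260.5 UMIs over the libraries, against 5321 to 6890.5 UMIs for the remaining fibroblasts. The part of depth in this split was not tested. In endothelial cells of NB, such cells were 30 of 60 and held 96.6% of the UMIs of Hspa1a.

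In B cells, the share of the UMIs of Hspa1a held by the 5 cells with most of them was 69.3% at NB, 43.3% at 2 M, 65.4% at 10 M and 44.7% for the library labelled 18 M, with up to 172 UMIs in 1 cell. Without them, B cells of the library labelled 18 M held 28.4 CPM and those of 10 M held 19.4 CPM, against 4.11 CPM in 2 M, so the B cell calls did not rest on those cells alone. For Hspa8, the 5 top cells held 1.56% to 2.06% in B cells. Of the pairs called for 18 M over 2 M, 17 of 18 were still called without the 5 top cells of each library. The same held for 5 of 11 for 10 M over 2 M and 10 of 14 for 2 M over NB. Too few UMIs were left to compare Hspa1a, Hspa1b and Hspb1 in NK cells for 10 M over 2 M. For 2 M over NB this applied to Hspa1a and Hspa1b in NK cells and Hspb1 in neutrophils. Leaving out 5 cells removes a larger part of a smaller set. Alveolar type II cells numbered 45 in 2 M against 732 in the library labelled 18 M, and their Hspa1b ratio went from 2.02 to 4.56. For such pairs a kept call says little.

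**Figure D5:**
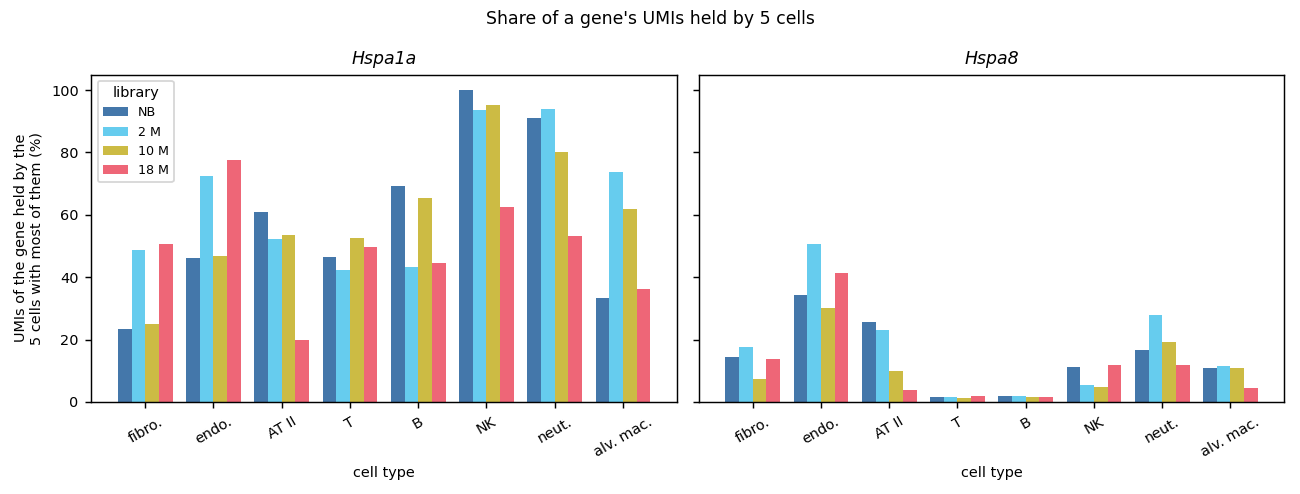
Percent of the UMIs of Hspa1a (left) and Hspa8 (right) held by the 5 cells with most of them, by cell type (fibro., endo., AT II, T, B, NK, neut., alv. mac.) and library. For Hspa1a in B cells the bars run from 43.3% to 69.3%, whereas for Hspa8 in B cells they reach at most 2.06%. Cell numbers differ between types, from 38 cells to 3048.

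Fibroblasts that held Hspa1a also held more of most other members. Among fibroblasts thinned to 1000 UMIs, Hspa1b averaged 9.04 UMIs with and 0.792 without a UMI of Hspa1a in NB and 3.17 UMIs with and 0.402 without in the library labelled 18 M. Hsph1 averaged 1 UMI with and 0.132 without in NB, and Hspb1 4.21 UMIs with and 0.906 without. Hspa8 differed less, with 2.40 UMIs with and 1.53 without in NB and 2.89 UMIs with and 1.99 without in the library labelled 18 M, and Hspd1 in 2 M went the other way, with 0.196 UMIs with and 0.213 without. The summed immediate early genes averaged 27.5 UMIs with and 16.9 without in NB, 28.4 UMIs with and 20.3 without in 2 M, 26.1 UMIs with and 13.6 without in 10 M and 21.8 UMIs with and 12.7 without in the library labelled 18 M. The part of digestion in either set of genes was not tested.

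Of 6662 genes outside the lists, those whose pattern over the 35 sums was most like the mean of the members were Eid1, Erf, Tmem176b, Nfic and Itpkc, with Pearson r of 0.89, 0.88, 0.87, 0.86 and 0.85. The sums share libraries and cell types and are not independent.

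The wider chaperone network was counted over 96 further genes in 9 lists. Of 636 pairs, 17 were higher and 11 lower in the library labelled 18 M than in 2 M (2.67% and 1.73%). Of 637 pairs, 20 were higher and 2 lower in 10 M than in 2 M (3.14% and 0.314%), and of 619 pairs, 12 were higher and 17 lower in 2 M than in NB (1.94% and 2.75%). These shares can be read against those of all gene pairs given with each comparison.

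For 18 M over 2 M, HSP90 and its co-chaperones gave 1 higher and 1 lower of 87 pairs. Fkbp4, a prolyl isomerase that docks on HSP90, was higher in fibroblasts at 64.4 CPM in the library labelled 18 M against 26.9 CPM in 2 M (ratio 2.40, interval 1.53 to 3.91). Other HSP70 and HSP110 genes gave 3 higher and 1 lower of 50, with the HSP110 relative Hspa4l at 184 CPM in the library labelled 18 M against 46.7 CPM in 2 M (ratio 3.94, interval 2.01 to 8.61) in endothelial cells. Exchange factors and HSP70 partners gave 3 higher and 2 lower of 70, with Bag3, which links HSP70 to small heat shock proteins, at 12.6 CPM in the library labelled 18 M against 3.03 CPM in 2 M (ratio 4.15, interval 2.73 to 6.51) in B cells. Other small heat shock proteins gave 2 higher and 1 lower of 16, and the lower one was Hspb8, the partner of Bag3, at 62.0 CPM in the library labelled 18 M against 166 CPM in 2 M (ratio 0.374, interval 0.288 to 0.485) in fibroblasts.

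Other J proteins gave 3 higher and 3 lower of 123, with Dnaja4 higher in B cells (ratio 3.81, interval 1.86 to 8.56) and Dnajb14 lower in B cells (ratio 0.430, interval 0.339 to 0.544), NK cells (ratio 0.259, interval 0.0808 to 0.645) and neutrophils (ratio 0.313, interval 0.174 to 0.553). Heat shock factors and their regulators gave 1 higher and none lower of 21, the cytosolic TRiC chaperonin 1 higher and none lower of 56 and mitochondrial protein quality control 1 higher and none lower of 66. Chaperones of the endoplasmic reticulum, which serve another stress response, gave 2 higher and 3 lower of 147. Cell cycle genes gave 46 higher and none lower of 79. With the cells that held at least 2 of them left out, 11 of 56 member pairs were called higher. The share of all genes called without those cells was not counted.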

How the data were processed

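Single-cell suspensions of mouse lung, in 4 libraries, were profiled by droplet sequencing of 3′ tags. The authors deposited raw UMI counts per gene and barcode for each library. The submitters' processing notes name Cell Ranger 3.0.2, Seurat 2.0 and the build mm10, and the file headers give software version 3.1.0. Values in the files are whole counts with no normalisation, and 187318121 UMIs were summed over 34037 barcodes.

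Cells were kept if they had over 200 and below 5000 genes, no more than 25000 UMIs and a mitochondrial share below 8%. The study's limit at 25000 UMIs was read as an upper one. No doublet caller was run. Cells were assigned by 10 markers per type, of which Trac, Trbc1, Trbc2, Ighm and Ighd were not analysed here, nor was Cct6a of the TRiC list. UMIs were summed per cell type and library and scaled to CPM. Ratios against a sum of 0 used a floor of 3 UMIs. Named genes of other lists are among the 4 with the largest change per list and cell type of those called. Likeness was taken over genes at 10 CPM or more. With 1 library per group no test was run. The members and lists were chosen with earlier results of these data known. Alternatives covered cell limits, gates, scaling, thinning, the fold limit and sets of cells. Calculations used Python 3.11.15, numpy 2.4.6, pandas 2.3.3, scipy 1.17.1 and matplotlib 3.10.9, and were tested on simulated data.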

Additional observations from a re-analysis of the deposited data

Results flagged for a closer look

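Hspa1a, Hspa1b and Hspb1 were called in opposite directions in different cell types of the same comparison, and the differences between cell types were not tested. For 18 M over 2 M, Hspa1a had a ratio of 4.87 in T cells, 7.06 in B cells and 2.73 in alveolar macrophages, but 0.221 in neutrophils. Hspb1 had one of 3.21 in T cells and 7.31 in B cells, but 0.424 in fibroblasts and 0.228 in endothelial cells. For 10 M over 2 M, Hspa1a had one of 2.14 in alveolar type II cells, 5.81 in T cells, 7.73 in B cells and 3.76 in NK cells, but 0.481 in neutrophils. For 2 M over NB, Hspa1a had one of 2.81 in NK cells and 2.69 in alveolar macrophages, but 0.420 in fibroblasts, 0.161 in T cells and 0.130 in B cells. Hspa1b had one of 3.13 in NK cells, but 0.393 in fibroblasts, 0.209 in T cells, 0.0664 in B cells and 0.438 in neutrophils.

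Barcodes left out only for their mitochondrial share, which no comparison used, also held Hspa1a. Its level in them was 349 CPM in NB (175 barcodes), 360.3 CPM in 2 M (195), 590.0 CPM in 10 M (164) and 259 CPM in the library labelled 18 M (570), while the limits that a count of 0 allows were 1.93 to 9.08 CPM. In the cells kept it was 317 CPM in NB, 130.2 CPM in 2 M, 284 CPM in 10 M and 219 CPM in the library labelled 18 M.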

How the results depend on the processing

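No paired analysis was possible because each age had 1 library, and no replicate could be left out. The 43 called ratios were recomputed under 17 alternatives, of which leaving out the 5 top cells was chosen after seeing the data. Of 620 values, 572 were still called in the same direction, 42 were no longer called and 6 lay on the other side of 1; 36 had too few UMIs or cells. For Hspa1a in neutrophils the stricter gate gave 1.47 for 18 M over 2 M and 4.51 for 10 M over 2 M, and leaving out 5 cells gave 1.71 and 1.60. Hspa1b gave 0.605 in T cells for 10 M over 2 M with no marker of another type allowed, and 1.31 in neutrophils for 2 M over NB without cycling cells. Every call was in the same direction within the Xist-positive and within the Y-linked, Xist-negative cells where it could be compared. Of the called pairs, 7 of 18, 4 of 11 and 9 of 14 for 18 M over 2 M, 10 M over 2 M and 2 M over NB were called under every alternative that gave a value.

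The counts of called pairs moved by more than 1.5 times as follows, and except where an alternative leaves out cells or widens the fold limit the cause was not tested. For 18 M over 2 M, the lower pairs numbered 6 with a 5% mitochondrial limit, 7 with the looser gate, 6 as means over cells, 5 after centring on all genes and 5 without 5 cells. The lower pair of 10 M over 2 M became 0 with the looser gate, as means, by thinning, by centring and without 5 cells, and 2 without cycling cells. The higher pairs of 2 M over NB became 1 with the looser gate and without 5 cells and 0 by thinning, and its lower pairs 19 without 5 cells. With no marker of another type allowed, which left 17, 28 and 19 pairs, 1 was higher and 0 lower for 18 M over 2 M, 2 and 0 for 10 M over 2 M, and 0 and 2 for 2 M over NB. The median log2 ratio over all genes, which centring sets to 0, was 0.21 in T cells and 0.18 in endothelial cells for 18 M over 2 M, -0.17 in neutrophils for 10 M over 2 M and 0.22 in neutrophils for 2 M over NB. At 1.5-fold, 29 were higher and 9 lower for 18 M over 2 M. At the same limit 3 were lower for 10 M over 2 M and 18 lower for 2 M over NB. The share of all genes called was not counted under any of these alternatives, so these counts cannot be read against it.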

Other observations

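Monocytes, interstitial macrophages and dendritic cells, which had too few cells for ratios, held Hspa1a at 104.8 CPM in NB, 2653 CPM in 2 M, 942 CPM in 10 M and 1803 CPM in the library labelled 18 M, from 26, 6, 28 and 31 cells. A single cell held 178 of the 179 UMIs in 2 M and 368 of the 490 in the library labelled 18 M. Hspa8 in these cells stood at 1439 CPM in NB, 1956 CPM in 2 M, 2368 CPM in 10 M and 2325 CPM in the library labelled 18 M.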
